A study of Caenorhabditis elegans with 2 samples.

Results

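Peaks of DAF-16 binding inside protein-coding exons were taken from the list of peaks that passed the irreproducible discovery rate (IDR) comparison of 2 replicates. A nuclear peak was included when its summit lay in an annotated coding segment of the WBcel235 (ce11) assembly and more than 300 bp from every annotated protein-coding transcript start. Of 8748 nuclear peaks, 534 had a summit in coding sequence (6.10%). Of these, 166 lay within 300 bp of a start, which left 368 coding-exon peaks in 341 host genes. With a limit of 1000 bp there were 204. The pooled list of both replicates is labelled as peaks and background and has no IDR threshold. In it the 300 bp rule gave 3349 entries, which are not all called peaks. None of the 368 summits lay in the coding sequence of 2 genes at once.

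The series held 1 group, with no treated, mutant or control group to set against it. Whole L4 larvae, the last larval stage, of strain XE1464 were used, males and females pooled, in an unc-119(ed3) III background. The worms stably carried a transgene for DAF-16 with a GFP and FLAG tag at its C-terminal end, so reads from the transgene and from the native daf-16 locus cannot be told apart. No coding-exon peak lay in daf-16 or unc-119. Chromatin was sonicated, the antibody is labelled daf-16, and 2 biological replicates were sequenced. Whether the replicates came from separate cultures is not stated. A whole larva mixes all tissues, so binding in few cells and weak binding in many cannot be told apart.

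DAF-16 is the FOXO transcription factor of C. elegans, held in the cytoplasm by insulin-like signalling and active in the nucleus under stress or starvation. FOXO proteins recognise the DAF-16 binding element (DBE), GTAAACA. The DAF-16-associated element (DAE), CTTATCA, is a second sequence found near DAF-16-regulated genes, has been linked to the zinc finger factor PQM-1 and contains the GATA-type sequence TGATAA read on the other strand. Binding sites inside coding exons share their bases with codons, unlike sites in promoters or introns.

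Short stretches of coding sequence around the summits show what such a site looks like. All are from RefSeq's WBcel235 sequence, read 5′ to 3′ on the coding strand of the host gene, and stop at the exon's edge. Capitals mark a DBE (GTAAACA, or TGTTTAC when read from the other strand), a DAE (CTTATCA or TGATAAG) or a TGATAA site (TGATAA or TTATCA). The first 4 are among the strongest coding-exon peaks with a DBE inside the exon, and they carry it in either direction. They lie in oac-57 (chrIV:12306172-12306261, minus strand), pxn-2 (chrX:10976972-10977050, minus strand), clec-5 (chrIII:4882857-4882913, minus strand) and mfsd-12 (chrX:4672652-4672727, plus strand).
oac-57: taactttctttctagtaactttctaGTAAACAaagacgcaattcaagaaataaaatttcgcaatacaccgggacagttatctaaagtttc
pxn-2: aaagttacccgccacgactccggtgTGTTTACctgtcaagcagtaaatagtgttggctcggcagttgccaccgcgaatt
clec-5: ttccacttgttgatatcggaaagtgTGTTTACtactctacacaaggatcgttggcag
mfsd-12: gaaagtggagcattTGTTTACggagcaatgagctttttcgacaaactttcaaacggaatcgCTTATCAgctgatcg
The next 3 are among the strongest with a DAE inside the exon, in frpr-5 (chrV:13532614-13532694, minus strand), R08E3.3 (chrX:4819060-4819129, plus strand) and mtx-2 (chrIII:7762370-7762477, minus strand).
frpr-5: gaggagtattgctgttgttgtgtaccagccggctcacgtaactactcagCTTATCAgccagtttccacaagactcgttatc
R08E3.3: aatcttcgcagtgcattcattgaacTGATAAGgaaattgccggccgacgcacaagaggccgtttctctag
mtx-2: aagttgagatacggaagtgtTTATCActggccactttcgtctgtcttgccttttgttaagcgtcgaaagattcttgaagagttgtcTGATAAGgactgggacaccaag
The last 3 are the strongest with none of these motifs, in F19H6.6 (chrX:12363060-12363099, plus strand), ccd-5 (chrX:2569254-2569304, minus strand) and dhs-28 (chrX:6819786-6819836, plus strand).
F19H6.6: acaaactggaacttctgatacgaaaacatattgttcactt
ccd-5: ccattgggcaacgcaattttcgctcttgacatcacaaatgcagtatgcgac
dhs-28: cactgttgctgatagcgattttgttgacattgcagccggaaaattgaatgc
The first 4 stretches run from 25 bases before to 25 bases after the summit and the DBE, the next 3 likewise for the summit and the DAE, and the last 3 for the summit alone, as far as these bases are in the coding segment.

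Coding sequence held few peaks for its length. It had 18.2 coding-exon peaks per Mb (95% exact Poisson interval 16.4 to 20.1, counting error only) over 20.2 Mb of coding sequence more than 300 bp from starts. At the same distance from starts, introns had 51.3 peaks per Mb, 3′ UTRs 88.7 and intergenic sequence 104. For the strongest quintile of nuclear peaks by signal, the density was 1.63 per Mb in coding exons, 9.95 in introns and 23.9 in intergenic sequence. The plot of peak density shows coding exons as the lowest of the 4 classes, with an interval that does not meet those of the other 3. No test was made of these densities.

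**Figure D1:**
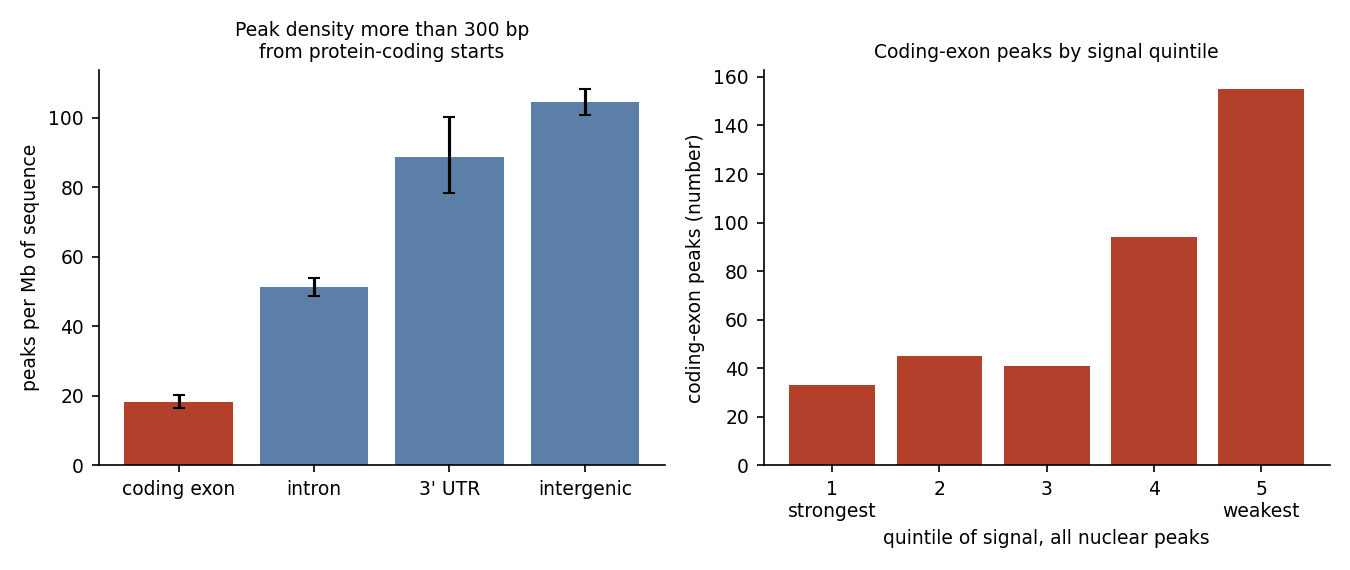
Left, peaks per Mb of sequence more than 300 bp from protein-coding starts in coding exons, introns, 3′ UTRs and intergenic sequence, with 95% exact Poisson intervals: 18.2 in coding exons against 51.3 to 104 in the others. Right, the number of coding-exon peaks in each quintile of signal of all nuclear peaks, from 33 in the strongest to 155 in the weakest.

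Most coding-exon peaks were weak. Signal is the deposited score of a peak, on a scale that is not stated, and here only ranks peaks within a list. The median signal was 61.6 in coding exons (interquartile range 42.6 to 115, full range 35.4 to 657) and 107 over all nuclear peaks (61.0 to 188). Peaks more than 300 bp from starts had a median of 104 in introns, 66.3 in 3′ UTRs and 116 in intergenic sequence. When all nuclear peaks were cut into 5 equal groups by signal, coding-exon peaks made up 1.89% of the strongest group (33 peaks) and 8.86% of the weakest (155 peaks). Over the whole list, coding-exon peaks were 368 of 8748. The strongest coding-exon peak ranked 74 among all nuclear peaks, and 13 of the strongest 500 nuclear peaks (2.6%) were coding-exon peaks.

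The intervals were often of 1 width. An interval of exactly 350 bp, the most frequent width in the list, was held by 222 of 368 coding-exon peaks (60.3%, 95% Wilson interval 55.2 to 65.2), against 35.5% of all nuclear peaks. The share went with signal: it was 92.3% in the weakest quintile and 75.5% in the next for coding-exon peaks, against 90.5% and 70.6% for all nuclear peaks there. Of the 3′ UTR peaks, whose signals were also low, 54.6% had it. The 222 coding-exon peaks of this width had a median signal of 46.3 and none was above 104. The other 146, whose widths ran from 88 to 610 bp, had a median of 141. Values are therefore given for both sets for replicate matching and signal, promoter peaks, and the DBE, DAE and TGATAA shares. Why the list holds this width was not tested.

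Each coding-exon peak was looked for in the replicates' own lists, where a summit within 100 bp counted as its counterpart. The IDR list was itself made by comparing these 2 replicates, so the matching describes the list and is no independent check of its peaks. A counterpart in both replicates was found for 239 of 368 (64.9%, 95% Wilson interval 59.9 to 69.6), against 77.3% of all nuclear peaks. Matching within 50 bp found 39.9%. A counterpart was missing in replicate 1 alone for 52, in replicate 2 alone for 61 and in both for 16. In the 2 strongest groups of signal, all 33 and all 45 coding-exon peaks had counterparts in both replicates, against 98.6% and 93.3% of all nuclear peaks there. In the 3 weaker groups the shares were 78.0%, 52.1% and 51.6% in coding exons, against 83.4%, 65.9% and 45.1% over all nuclear peaks. Among peaks of 350 bp the share was 52.7% in coding exons and 56.5% over all nuclear peaks. Among peaks of other widths it was 83.6% in coding exons and 88.7% over all nuclear peaks.

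Over the 239 coding-exon peaks found in both replicates, the median signal was 31.9 in replicate 1's list and 27.6 in replicate 2's, against 65.2 and 50.9 over the 6758 nuclear peaks found in both. Across these peaks the 2 signals had a Spearman correlation of 0.71 in coding exons and 0.74 over all nuclear peaks. The points are peaks that share 2 libraries and the same calling, so they are not independent replicates. The 122 of other widths had a correlation of 0.65, with median signals of 84.6 in replicate 1's list and 62.9 in replicate 2's. The 117 of 350 bp had a correlation of 0.02, with medians of 16.6 and 17.0. Why the 2 widths differ in this was not tested. The median summit moved by 17 bp in replicate 1 and 25 bp in replicate 2, against 14 and 19 bp over all nuclear peaks.

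**Figure D2:**
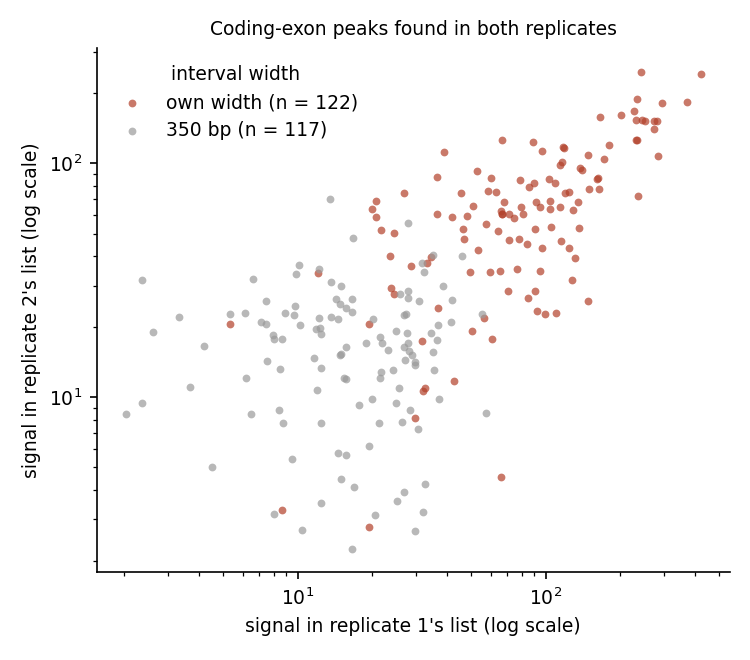
Signal of the 239 coding-exon peaks with a counterpart in both replicates, replicate 1's list on the x axis and replicate 2's on the y axis, both on log scales, with a point per peak. The 122 peaks of their own width spread along the diagonal and the 117 peaks of 350 bp form a cloud at low signal in both lists.

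No coding-exon peak that lacked a counterpart in a replicate had a signal above 128. The strongest coding-exon peaks with no counterpart in replicate 1 lay in cest-3, a carboxylesterase gene, with a signal of 128 in the IDR list and 60.6 in replicate 2's list, and in anat-1, an N-acetyltransferase gene, with 104 and 66.1. F11D5.7 (91.8), fat-6 (90.3) and noca-2 (89.3) followed. fat-6 encodes a delta-9 fatty acid desaturase. The strongest with none in replicate 2 lay in pho-11, an acid phosphatase gene, with a signal of 108 in the IDR list and 70.2 in replicate 1's list, and in glo-3, needed for gut granules, with 99.5 and 69.8. dnj-19 (89.9), C15A11.7 (88.1) and mif-2 (85.4) followed. At the 300 bp limit, the nearest peaks inside it lay 307 bp from a start in srgp-1 (signal 47.1), 308 bp in C15A11.7 (88.1) and 314 bp in aex-1 (40.2). The nearest coding peaks left out lay at 296 bp in acly-1 (86.6), 294 bp in unc-40 (57.6) and 292 bp in W06H8.6 (57.1).

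The 20 strongest coding-exon peaks had signals between 280.1 and 657. All 20 had counterparts in both replicates, with a lowest, median and highest signal of 166, 240 and 423 in replicate 1's list and of 72.3, 153 and 247 in replicate 2's. None had the 350 bp width. Of the 20, 5 had a DBE, 3 a DAE and 9 a TGATAA site within 75 bp of the summit, and 10 had none of the 3. Their 20 host genes included 9 that also had a promoter peak, which is defined below as a peak at one of the gene's own starts.

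The strongest of all lay at the end of F19H6.6, a gene for an uncharacterised protein, in exon 3 of 3, at 97.5% of the coding sequence. Its signal was 657 in the IDR list, 423 in replicate 1's list and 241 in replicate 2's. The next lay in frpr-5, which encodes a receptor of the rhodopsin-like G protein-coupled family, with 595 in the IDR list, 372 in replicate 1's list and 182 in replicate 2's. This peak was in coding exon 7 of 10 and 487 bp upstream of a further start of frpr-5 itself. R08E3.3, whose product RefSeq names for a CCDC22 N-terminal domain, had 516, 294 and 182 in the same lists. Its window held a DAE inside the exon and a DBE outside it.

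The next hosts described are enzyme genes. dhs-28, a gene of peroxisomal fatty acid β-oxidation that is needed for dauer pheromone synthesis, held a peak of 413 in the IDR list, 273 in replicate 1's list and 140.5 in replicate 2's. The strongest promoter peak of dhs-28 had a signal of 424 in the IDR list. pks-1, a very long polyketide synthase gene, held a peak of 408 in the IDR list, 280.1 in replicate 1's list and 152 in replicate 2's. That peak lay in coding exon 22 of 30, 15231 bp from the nearest protein-coding start, the largest distance of any coding-exon peak. cgt-1, which encodes a ceramide glucosyltransferase of sphingolipid synthesis, had 280.1, 171 and 104 in these lists. cest-7, a carboxylesterase gene, had 407, 227 and 167, with its DAE outside the exon. oac-57, whose product RefSeq names for an acyltransferase domain, had 429, 234 and 189, with a DBE.

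pqm-1 encodes a zinc finger transcription factor whose nuclear localisation is known to alternate with that of DAF-16. Its coding-exon peak, in exon 5 of 6, had a signal of 371 in the IDR list, 234 in replicate 1's list and 126 in replicate 2's, and its strongest promoter peak had 209 in the IDR list. The window of the coding-exon peak held an E-box (CACGTG) inside the exon and TGATAA sites outside it, but neither a DBE nor a DAE.

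Other hosts among the 20 were pxn-2, a peroxidasin homolog of the extracellular matrix, with 366 in the IDR list, 201 in replicate 1's list and 160.3 in replicate 2's, and a DBE. sul-3, a sulfatase gene, had 319, 179 and 119.9, with its DBE outside the exon. hpo-34 had 399, 274 and 152, and Y102A11A.3, which RefSeq names as an unc-13 homolog, had 409, 231 and 154. ccd-5, a gene for a C2 domain protein, had 492, 243 and 247. The remaining 6 were T08G2.2 (411), K09C4.5 (411), C03A3.2 (409), Y102A11A.5 (367), F59A1.11 (348) and ptd-2 (329). They lie in genes for an α-1,6-mannosyltransferase, a major facilitator transporter, a transmembrane protein 104 homolog, an MliC domain protein, a serpentine receptor of class T and a sterol-sensing domain protein, by RefSeq's names.

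Of the 20, 14 lay on the X chromosome. The X had 32.1 coding-exon peaks per Mb of eligible coding sequence (95% exact Poisson interval 25.97 to 39.2), and the autosomes had between 12.1 on chromosome I and 18.7 on chromosome V. Over all nuclear peaks and all sequence, the X had 114 per Mb and the autosomes 74.4 to 92.6. The X held 96 of the 368 coding-exon peaks, with a median signal of 89.2 against 122 for all nuclear peaks on the X. The autosomes' coding-exon peaks had medians between 53.9 and 66.0, against 98.7 to 111 for all their nuclear peaks. On the X, 74 of 96 had counterparts in both replicates (77.1%).

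Within host genes, the peaks lay towards the 3′ end more often than eligible coding bases do. Of the 368, 180 (48.9%, 95% Wilson interval 43.8 to 54.0) lay in the third of the coding sequence nearest the stop codon, which holds 38.6% of eligible coding bases. The third nearest the start codon held 18.8% of the peaks and 23.5% of the bases. Last coding exons held 102 peaks (27.7%) and 17.1% of the bases, and internal ones 257 peaks (69.8%) and 80.7% of the bases. First coding exons held 9 peaks (2.45%, 95% Wilson interval 1.29 to 4.58) and 1.85% of the bases. Within 500 bp of the host gene's end lay 119 of 368 (32.3%, 95% Wilson interval 27.8 to 37.3), against 20.6% of eligible coding bases. The segment that held the summit had a median length of 192.5 bp, where the median eligible coding base lies in a segment of 274 bp.

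**Figure D3:**
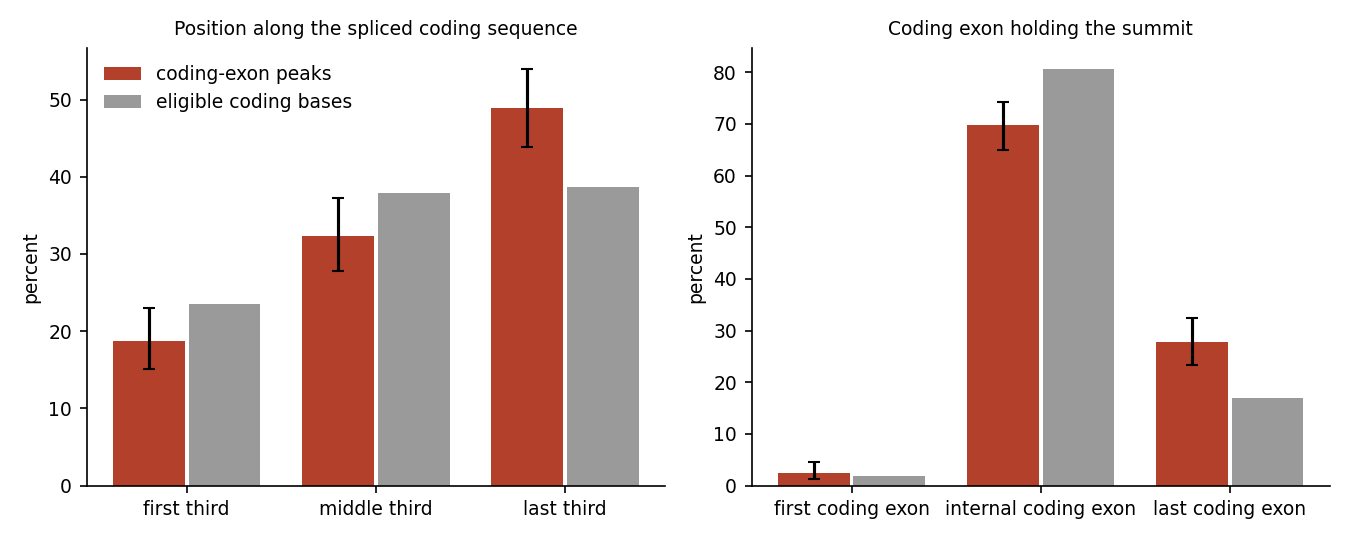
Percent of coding-exon peaks (with 95% Wilson intervals) and of eligible coding bases by position along the spliced coding sequence (left) and by coding exon (right). The part nearest the stop codon holds 48.9% of the peaks and 38.6% of the bases, and last coding exons 27.7% of the peaks and 17.1% of the bases.

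A summit in an exon does not put the whole site in coding sequence. The median window of 75 bp on either side of the summit was 73.5% coding. In 108 of 368 peaks the window was wholly coding, and in 9 at most 50% of it was. The summit lay at least 25 bp inside the coding segment in 243. A non-coding gene was annotated over 3 of the summits. Most coding-exon peaks were not in front of another gene. A protein-coding start lay at most 1000 bp downstream for 42 (11.4%, 95% Wilson interval 8.56 to 15.1), against 49.6% of all nuclear peaks, which include those within 300 bp of starts. Among peaks more than 300 bp from starts, the share was 20.3% in introns, 23.7% in 3′ UTRs and 34.4% in intergenic sequence, and it was 10.4% for windows tiled over the eligible coding sequence. For coding-exon peaks it was 2.17% within 500 bp and 32.9% within 2000 bp. For 32 of the 42 that start belonged to another gene, and for 10 to the host itself. Among the named peaks, Y6E2A.4, with a signal of 247 in the IDR list, 119.9 in replicate 1's list and 74.8 in replicate 2's, lay 578 bp upstream of str-101, a chemoreceptor gene. mig-21, a cell migration gene, held a peak of 140 in the IDR list, with 90.6 in replicate 1's list and 28.3 in replicate 2's, 505 bp upstream of aldo-2, a fructose-bisphosphate aldolase gene. The farthest from every start after pks-1 were itr-1, the inositol trisphosphate receptor gene (8108 bp), Y34B4A.4 (5212 bp), sul-3 (4517 bp) and epc-1, an enhancer of polycomb homolog (3938 bp).

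The host genes often had a promoter peak as well. A promoter peak is a nuclear peak from 1000 bp upstream to 300 bp downstream of any annotated start of the gene, coding-exon peaks left out. It was present for 220 of 341 host genes (64.5%, 95% Wilson interval 59.3 to 69.4), against 23.8% of all 19973 protein-coding genes. The share was 68.7% for hosts of 350 bp peaks and 59.0% for hosts of the others. The coding-exon peak was the weaker in 199 of 242 cases where both existed. That was so in 143 of 154 with the 350 bp width and in 56 of 88 of the others. A stronger peak lay within 1000 bp of 102 coding-exon peaks (27.7%), against 19.1% of all nuclear peaks. By signal quintile from strongest to weakest, that share was 9.09%, 11.1%, 14.6%, 29.8% and 38.7% in coding exons, against 4%, 10.5%, 16.6%, 27% and 37.3% over all nuclear peaks, and it was 24.6% for introns beyond 300 bp. The median distance to the next peak was 1185 bp in coding exons and 1474 bp over all nuclear peaks. Whether reads of the neighbouring peak add to the signal in the exon was not tested.

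**Figure D4:**
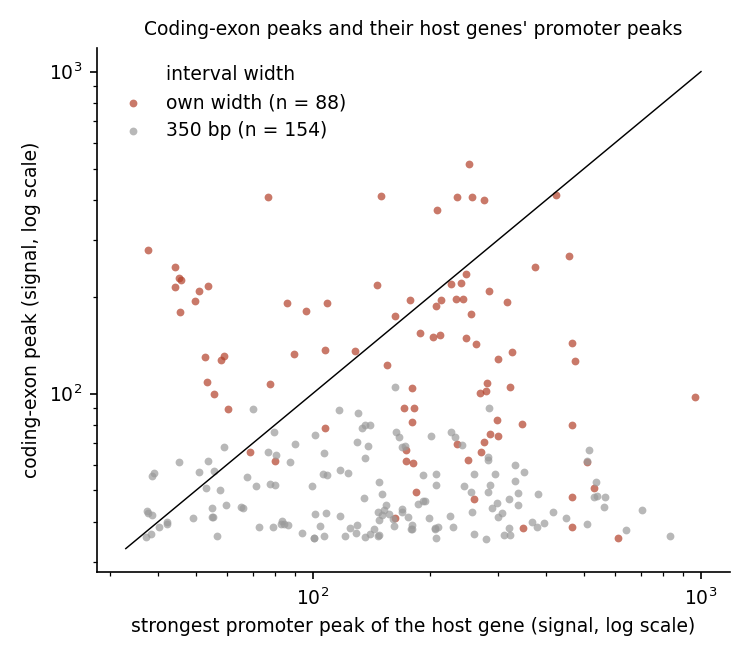
Signal of 242 coding-exon peaks (y axis, log scale) against the strongest promoter peak of the same host gene (x axis, log scale), with the line of equal signal. Of these, 199 lie under the line, among them 143 of the 154 peaks of 350 bp and 56 of the 88 others.

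In 24 host genes, 2 or more coding-exon peaks were found, 51 in all. icl-1, the bifunctional gene of the glyoxylate cycle and a known DAF-16 target, had 4. In the IDR list these had signals of 143, 79.7, 47.8 and 38.6, below the gene's strongest promoter peak at 464. The first had 36.6 in replicate 1's list and 87.5 in replicate 2's, and the last had 24.6 and 27.6. The middle pair had no counterpart in replicate 1, and had 78.7 and 11.9 in replicate 2's list. C05C10.3, a succinyl-CoA:3-ketoacid CoA transferase gene of ketone body use, had 3, with 56.4, 47.1 and 36.6 in the IDR list and a promoter peak of 260.5. tps-1, a trehalose-6-phosphate synthase gene, had peaks of 209 and 89.9, under a promoter peak of 285. The stronger of these had 114 in replicate 1's list and 97.8 in replicate 2's, and a DAE. cyp-43A1, a cytochrome P450 gene, had 236 and 149, and hpo-34 had 399 and 70.6. clec-5, named for its C-type lectin domain, had 208 with a DBE and 56.9 with a DAE. Y102A11A.3 had 409 and 66.0, ifd-1, an intermediate filament gene, 187 and 35.7, H03A11.2 174 and 104, and C35E7.9 121 and 47.2.

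Motifs were sought on both strands, wholly within 75 bp of the summit. A DBE was present in 22 of 368 coding-exon peaks (5.98%, 95% Wilson interval 3.98 to 8.89), against 8.94% of all nuclear peaks and 1.11% of 134002 windows of the same length tiled over eligible coding sequence. A DAE was present in 89 (24.2%, 20.1 to 28.8), against 21.8% of all nuclear peaks and 2.88% of the tiled windows. TGATAA, which every DAE contains, was present in 168 (45.7%, 40.6 to 50.8), against 42.5% of all nuclear peaks and 13.7% of the tiled windows. The E-box CACGTG was present in 16 (4.35%, 2.69 to 6.95), against 6.02% of all nuclear peaks and 3.58% of the tiled windows. None of DBE, DAE and TGATAA was present in 189 (51.4%), against 52.0% of all nuclear peaks. DBE and DAE occurred together in 6 (1.63%), the same share as the 1.63% of all nuclear peaks. These shares depended on the list. Among coding-exon peaks of a single replicate's strongest peaks, a DAE was present in 18.1% without replicate 1 and 13.3% without replicate 2, and a DBE in 3.61% and 3.53%. In the pooled list of peaks and background the shares were 5.85% for the DAE, 1.88% for the DBE and 17.8% for TGATAA. Among the stronger 50% of nuclear peaks, 11.2% of coding-exon peaks had a DBE.

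Reversed motifs served as controls of the same base composition. The reversed DBE, ACAAATG, was present in 4.08% of coding-exon peaks, 4.07% of all nuclear peaks and 4.76% of the tiled windows. The reversed DAE, ACTATTC, was present in 2.17% of coding-exon peaks, 2.29% of all nuclear peaks and 2.25% of the tiled windows. The repeat GAGAGAGA was present in 3 coding-exon peaks (0.815%), against 5.75% of all nuclear peaks and 0.443% of the tiled windows. The median GC content of the window was 39.7% in coding-exon peaks, 38.4% over all nuclear peaks and 40.4% in the tiled windows.

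**Figure D5:**
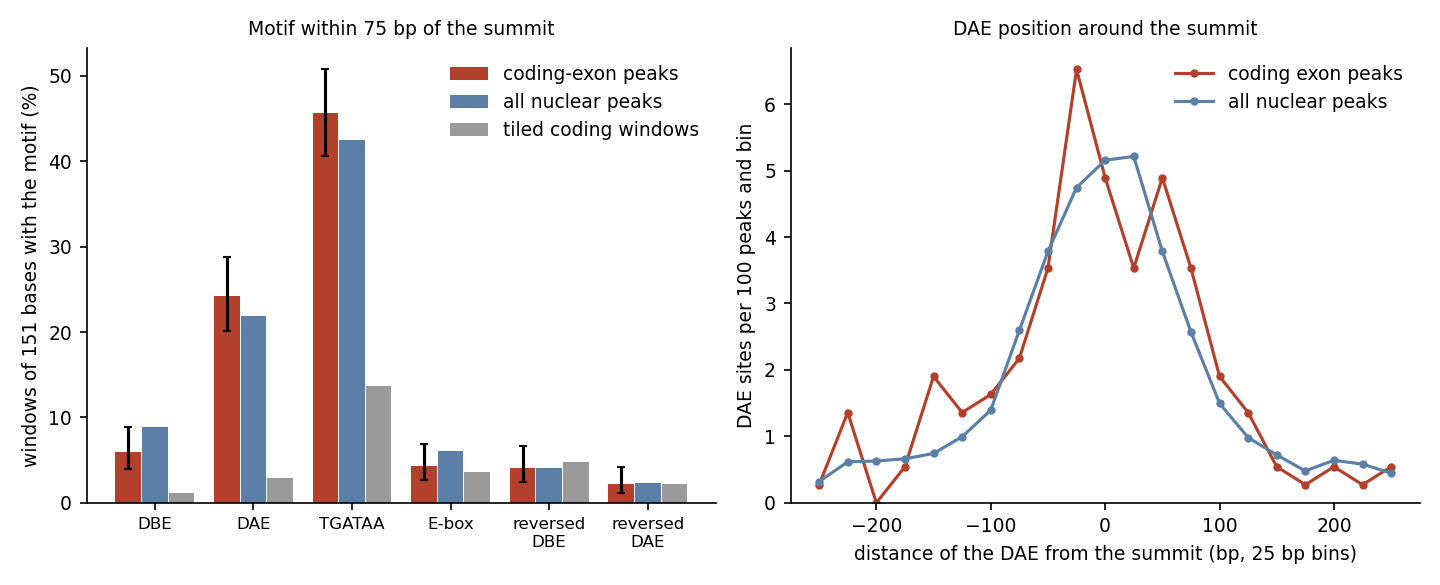
Left, percent of windows (75 bp on either side of the summit) with each motif in coding-exon peaks (with 95% Wilson intervals), all nuclear peaks and tiled coding windows: for the DAE 24.2%, 21.8% and 2.88%. Right, DAE sites per 100 peaks in 25 bp bins by distance from the summit, highest at 6.52 in coding-exon peaks and at 5.21 over all nuclear peaks.

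Beyond the window used for these shares, DAE sites became fewer. Per bin of 25 bp and 100 peaks, there were at most 6.52 sites in coding-exon peaks and 5.21 over all nuclear peaks, both in bins centred 25 bp from the summit. In the bins centred 250 bp away there were 0.272 and 0.543 in coding-exon peaks, against 0.320 and 0.446 over all nuclear peaks. The DAE share differed between the widths. Among coding-exon peaks of other widths, 48 of 146 had a DAE (32.9%, 95% Wilson interval 25.8 to 40.8), and among those of 350 bp 41 of 222 did (18.5%, 13.9 to 24.1). Over all nuclear peaks the shares were 25.5% at other widths and 15.1% at 350 bp. TGATAA was present in 57.5% of coding-exon peaks of other widths (95% Wilson interval 49.4 to 65.3) and in 37.8% of those of 350 bp (31.7 to 44.4). Over all nuclear peaks its shares were 48.1% and 32.2%. A DBE was present in 8.22% (4.76 to 13.8) and 4.50% (2.46 to 8.09) of coding-exon peaks, against 11.2% and 4.89% over all nuclear peaks. By group of signal from strongest to weakest, the DAE share was 21.2%, 40%, 43.9%, 27.7% and 12.9% in coding exons, against 28.0%, 26.4%, 22.5%, 20.3% and 12.1% over all nuclear peaks. The strongest group held 33 coding-exon peaks, and its interval ran from 10.7% to 37.8%.

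Most DAE sites lay in coding bases, which also make up most of the windows (43.4 kb, against 12.2 kb of other bases). Of 98 DAE sites in the windows, 74 lay wholly in coding sequence, in 66 peaks, which is 1.70 per kb of the windows' coding bases (95% exact Poisson interval 1.34 to 2.14). The other 24 sites were not wholly coding, a count that includes any site crossing an exon's edge. Per kb of the windows' other bases they came to 1.97, and all eligible coding sequence had 0.214 per kb. For the DBE, 12 of 22 sites lay wholly in coding sequence, or 0.276 per kb (0.143 to 0.483). The other 10, counted in the same way, came to 0.823 per kb of the windows' other bases, and all eligible coding sequence had 0.0623 per kb.

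The genetic code limits how such a site can be read, since TGA and TAA are stop codons. On the coding strand, 39 of the 74 DAE sites read CTTATCA and 35 read TGATAAG, and over all eligible coding sequence the counts were 2185 and 2124. CTTATCA began at the first codon position in 19, at the second in 17 and at the third in 3, against 1072, 710 and 403 over all eligible coding sequence. TGATAAG began at the first position in 0, at the second in 5 and at the third in 30, against 0, 301 and 1823 over all eligible coding sequence. Of the 12 DBE sites, 6 read GTAAACA and 6 read TGTTTAC, against 39.7% and 60.3% over all eligible coding sequence. The stretches from oac-57 and pxn-2 printed above show both readings.

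By role, the host genes were spread over many families, counted by gene name prefix alone, so that genes of the same kind with other names are left out. Of all 19973 protein-coding genes, 341 were hosts (1.71%). Among heat shock and chaperone genes (hsp, dnj and cct names), 8 of 59 were hosts, and 7 of these 8 also had a promoter peak. Their signals were low, between 38.2 and 89.9, 6 of the 8 peaks had the 350 bp width and 4 had counterparts in both replicates. The strongest of them with counterparts in both, in hsp-17, a small heat shock protein gene, had 76.0 in the IDR list, 41.5 in replicate 1's list and 20.9 in replicate 2's. The others were dnj-19, hsp-70, hsp-90, hsp-110, hsp-1, cct-5 and hsp-6, which encode chaperones or their cofactors.

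Genes of detoxification and metabolism were also among the hosts. Of 67 UDP-glycosyltransferase genes, which conjugate sugars to foreign compounds, 6 were hosts, with signals between 36.3 and 132. A DAE was present in 4 of these 6 peaks, against 24.2% of all coding-exon peaks. It was present in 3 of 5 peaks in cyp genes, 3 of 8 in genes with chemoreceptor-type names and 1 of 8 in heat shock and chaperone genes. The 3 with chemoreceptor-type names were srab-12, srlf-7 and srgp-1, and RefSeq's products for srlf-7 and srgp-1 are not receptors. Of 74 genes with cyp names, which encode cytochrome P450 enzymes, 4 were hosts with 5 peaks, led by cyp-43A1 with 236 in the IDR list, 117 in replicate 1's list and 117 in replicate 2's. dach-1, which RefSeq also names as a cytochrome P450 gene, held a further peak of 123. Of 73 acyl-CoA and lipid enzyme genes, 4 were hosts with 5 peaks, in fat-6, acs-19, acdh-1 and acs-2. None of these peaks had a DBE, DAE or TGATAA site, and 51.4% of all coding-exon peaks had none either. Of 28 cathepsin-like and aspartic protease genes, 4 were hosts (cpl-1, asp-13, cpr-3 and asp-6), with signals between 36.1 and 73.6. Their 4 peaks also had none of the 3 motifs. Of 78 rpl and rps ribosomal protein genes 1 was a host (1.28%), rps-13, with a signal of 49.5 and no counterpart in replicate 1.

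Other name groups were counted in the same way. There were no hosts among 194 genes with collagen-type names (col, dpy, rol, sqt and bli), 72 his histone genes, 63 ceh homeobox genes, 56 pqn genes, 44 gst glutathione S-transferase genes, 31 msp genes and 6 vit vitellogenin genes. At 1.71%, each of these groups with 56 genes or fewer would hold less than 1. A gene can be a host only through coding bases more than 300 bp from every start. The counts of all name groups were not adjusted for how many such bases each gene has. By RefSeq's names, F13D12.8 (signals 77.8 and 63.5) encodes a protein with a cuticle collagen N-terminal domain, and C35E7.9 a major sperm protein. Of 1171 genes with chemoreceptor-type names, 8 were hosts (0.683%), among them srgp-1 and srlf-7, whose RefSeq products are not receptors. Of 322 genes with fbxa, fbxb or fbxc names 1 was a host (fbxa-66), of 269 nhr genes for nuclear hormone receptors 1 (nhr-92), and of 240 clec genes for C-type lectins 2. Of 94 unc genes 1 was a host (unc-23). The shares were 5.88% of 34 let genes (let-363 and let-418), 3.45% of 58 ttr genes and 3.13% of 64 genes with transporter names (pgp, mrp, haf, hmit and slc), each with 2 hosts. Family members can be near-identical copies, and how reads that match several copies were placed is not stated. The counts are descriptions of names and carry no test.

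The E-box peaks named for their signal were those of pqm-1 (371), cyp-43A1 (236), mig-21 (140), fat-6 (90.3) and rfc-3, a replication factor C subunit gene (81.3). The coding-exon peak of fat-6 lay in exon 5 of 5, had no counterpart in replicate 1 and 38.4 in replicate 2's list, and was weaker than the gene's promoter peak at 171.5.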

How the data were processed

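DAF-16 chromatin immunoprecipitation and sequencing was done on 2 biological replicates of 1 group, per the labels. The authors deposited narrowPeak lists for each replicate (16146 and 21378 peaks), for both pooled (22466) and for the IDR-thresholded set (8777, of which 29 mitochondrial peaks were left out). The pooled list is labelled as peaks and background that served as input for the IDR comparison. The deposited signal is a score of unstated scale. The deposited −log10 q-value took 1 value over the IDR list and was used for nothing. Aligner, peak caller, software versions and IDR cut-off are each not given in the sources used here. Read counts are not in the lists, so depth is unknown, and intervals cover counting error over peaks only.

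Summits were joined to Ensembl release 115 coding segments and RefSeq's sequence of the same assembly, WBcel235, after chromosome lengths had been compared. Gene product names are RefSeq's, matched for 367 of 368 peaks. The list's intervals were read as starting from 0. Positions of peaks within coding sequence use the longest coding transcript among those whose coding sequence holds the summit. With each gene's longest coding transcript alone, 363 coding-exon peaks remained. Tiled windows stepped by 151 bases over coding sequence more than 300 bp from starts. With 1 group and no control, no test was made. Members, motifs and gene groups were chosen with earlier results of these data known. Named genes were the hosts of the 20 strongest peaks, up to 10 with 2 or more peaks, the 5 strongest with each of DBE, DAE and E-box, the 5 farthest from starts, the 3 nearest each side of the limit, the 5 strongest missing in either replicate, and genes downstream of these. Members of the gene groups are named beyond that rule, as are the peaks printed as sequence, chosen as the strongest with or without a motif inside the exon. Alternatives were other distance limits, start sets, peak lists, coding definitions and windows. Steps were tested on simulated data. The tools were pandas 2.3.3, numpy 2.4.6, matplotlib 3.10.9 and scipy 1.17.1 under Python 3.11.15.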

Additional observations from a re-analysis of the deposited data

How the results depend on the processing

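Across 94 recomputed values of the 8 main results, 56 stayed within the reported value's 95% interval (for the number of peaks, within 1.5-fold) and 38 moved. With no distance limit, density was 21.6 per Mb, 18.2% lay upstream of a start and 40.3% had TGATAA. Beyond 1000 bp, there were 204 peaks at 16 per Mb, with 0% upstream by construction. Among the stronger 50% of nuclear peaks there were 98, at 4.84 per Mb, with a median signal of 189, 98.0% found in both replicates, a DBE in 11.2%, a DAE in 31.6% and TGATAA in 59.2%. The pooled list, labelled as peaks and background, has no IDR threshold. It gave 3349 entries, at 165.5 per Mb, with a median signal of 11.1 and 12.7% found in both replicates. A DBE was present in 1.88% of these entries, a DAE in 5.85% and TGATAA in 17.8%. Either replicate's own strongest peaks gave 443 to 482 coding-exon peaks, 21.9 to 23.8 per Mb, 11.2% to 11.3% upstream of a start, a DBE in 3.53% to 3.61%, a DAE in 13.3% to 18.1% and TGATAA in 32.8% to 37.7%; signal and presence in both replicates have no comparable value there. Summits at least 25 bp inside the exon numbered 243, at 15.5 per Mb, with a median signal of 56.0. Matching within 50 or 200 bp found 39.9% or 82.9% in both replicates. Starts within 500 or 2000 bp lay downstream of 2.17% or 32.9%. Motifs within 50 bp were present in 17.9% (DAE) and 35.1% (TGATAA), and TGATAA within 100 bp in 50.8%. By construction, wider windows for matching, starts or motifs can only raise these shares, and narrower ones can only lower them. Likewise, the stronger 50% can only have fewer peaks, a lower density and a higher median signal. The cause of the other shifts was not tested. No paired analysis was possible because the series has 1 group. With 2 replicates and no read counts, peaks near the threshold cannot be given an error of their own.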
